A study of Rattus norvegicus with 9 samples.

Results

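The granins and the enzymes that process prohormones form a group of 8 genes, namely Chga, Chgb, Scg2, Scg5, Pcsk1, Pcsk2, Cpe and Pam, and they were followed through rat proximal colon under 3 dietary proteins. All probe sets whose annotation gave one of these symbols, and no other, were taken. They were 14 of the 8799 probe sets of the array, of which 7018 carried a single symbol, and stood for 6 of the 8 genes. Chgb, Scg2 and Cpe had 1 probe set each, Scg5 and Pcsk2 had 2 each, and Pam had 7. No probe set carried the single symbol Chga or Pcsk1 in the annotation used here, so both genes are named only. Signals were high enough for a test in 9 of the 14 probe sets, and all 6 genes had at least 1 of these.

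Granins are acidic proteins that aggregate in the trans-Golgi and fill the dense-core granules of endocrine cells and neurons, where they are stored and released together with peptide hormones. Prohormones are cut inside the granule at pairs of basic residues by the convertases encoded by Pcsk1 and Pcsk2, then trimmed at the new C-terminus by carboxypeptidase E, and in many peptides amidated by the enzyme that Pam encodes. In the colon these granules are found in scattered endocrine cells of the epithelium and in neurons of the plexuses of the wall, and a sample of the whole wall holds both.

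The rats were male Sprague Dawley animals given purified diets that differed in protein source, from before birth to the end. The protein was casein in the control diet (CAS), an isolate of soy protein in the diet called SPI, and a hydrolysate of whey protein in the diet called WPH. Each rat, CAS rats included, had received 2 weekly injections of the colon carcinogen azoxymethane (AOM) at 15 mg/kg from 90 days of age and was killed 40 weeks later. Tissue free of tumor was taken from the proximal colon, and RNA of 7 rats per diet was pooled. From each pool 3 targets were made and hybridized to 1 Affymetrix RG_U34A rat array each, so that 3 arrays per diet share 1 pool, their spread is technical, and p-values compare pools rather than rats.

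Values are signals on the linear scale of the authors' software, scaled to a common average on each array. The arrays were alike in scale, with median signals between 149 and 166 and with 58.7 to 60.3% of probe sets at a signal of 100 or more. A probe set was tested if its mean reached 100 in at least 1 diet, which left 5606. It was called if its adjusted p from limma, over all 5606, was under 0.05. Each fold value is 1 mean signal divided by another, and each log2 change was estimated in the limma fit. The clock times of the hybridization entries, taken without the date as fluidics run times, put the arrays in 3 wash rounds. The first held the 3 CAS arrays and WPH 2, the second held SPI 1, SPI 2, WPH 1 and WPH 3, and the third held SPI 3. By these rounds SPI and CAS arrays shared none. The rounds are inferred, since no label names them, and without the date arrays of the same round could be of different days. SPI against CAS is therefore also given with the wash round as a block, where the contrast is linked only through WPH. With that block, WPH against CAS compares WPH 2 alone with the CAS arrays.

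With WPH the granins went in opposite directions. Against CAS, Chgb was lower 2.56-fold, whereas Scg2 was higher 2.84-fold and 1 of the 2 Scg5 probe sets was higher 3.70-fold. Cpe and 2 probe sets of Pam rose by less, and Pcsk2 was not called. In all, 5 of the 9 tested probe sets were called higher with WPH, where 20.9% of all tested probe sets were, and 1 was called lower, where 17.9% were. With SPI the means of Chgb, Scg2, Scg5 (M63901_g_at) and Cpe lay between those of CAS and WPH, and Pcsk2 was lower than with either. With SPI 3 of 9 were called higher, beside 12.0% of all tested, and 2 were called lower, beside 10.2%. All 5 of those SPI calls were lost with the wash round as a block. Chgb, Scg2 and Scg5 had been picked by the study from these same arrays, so their directions with WPH were known when the genes were chosen and are not independent evidence.

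**Figure D1:**
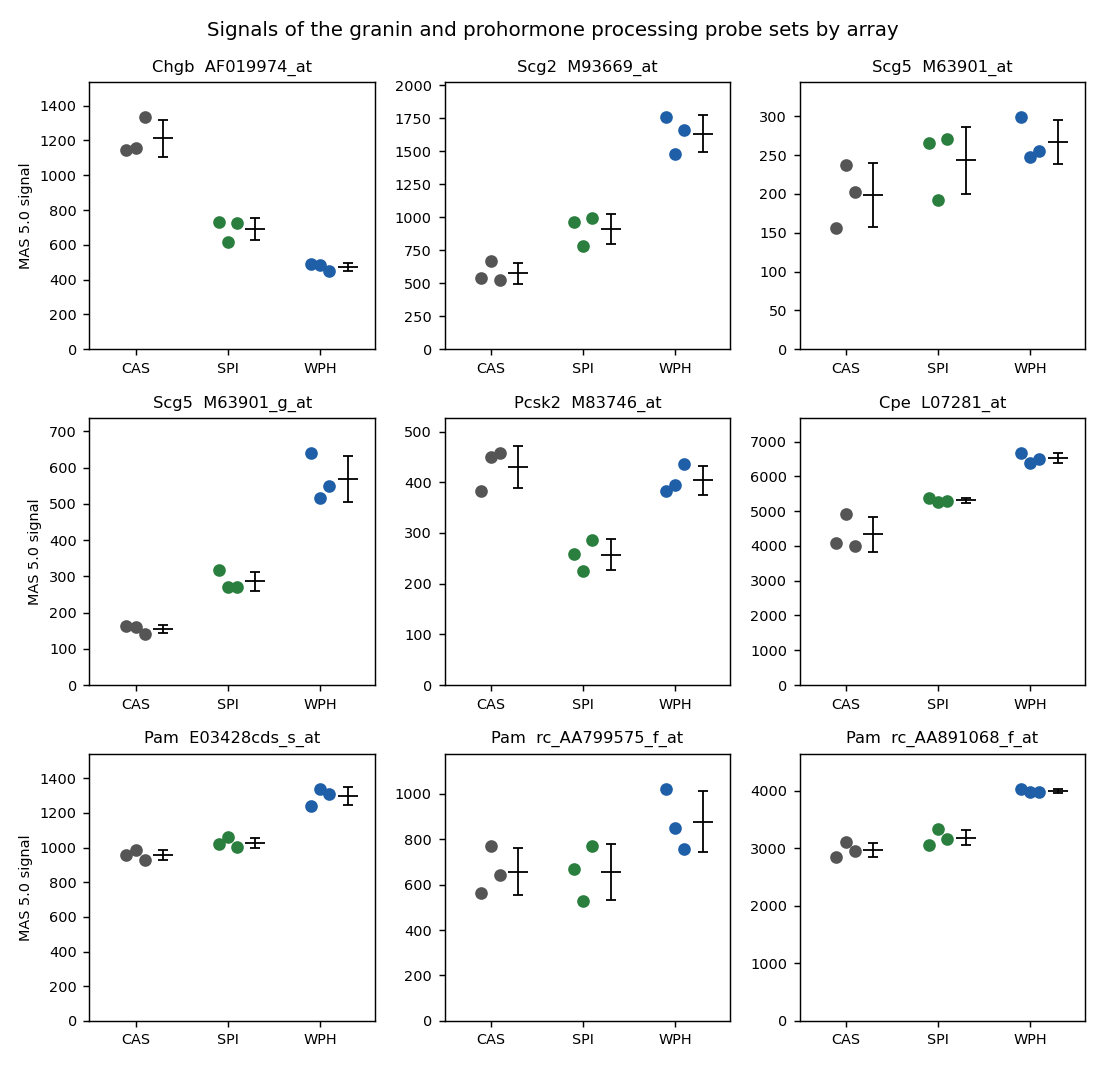
MAS 5.0 signal (linear scale) of the 9 tested probe sets on each of the 9 arrays. Points are arrays, and the bar beside each diet is the mean with its SD (n = 3 arrays of 1 pool). Chgb steps down from CAS to SPI to WPH, Scg2 and Scg5 (M63901_g_at) step up, and Pcsk2 (M83746_at) is low with SPI alone.

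The 250 bases before the start of 3 granin family genes are printed because these genes differed most between the diets and in opposite directions. They come from RefSeq on build GRCr8, in which 6 of the 8 genes matched. Each promoter was searched on both strands for the cyclic AMP response element TGACGTCA, the Sp1 box GGGCGG and the TATA box TATAAA. Capitals mark a match. Positions count back from the base before the start, which is -1. Of all 33469 promoters of that length in the table, 1.59% held the first motif, 30.5% the second and 12.9% the third. The Scg2 promoter is at chr9:88256867-88257116 on the minus strand, the Chgb promoter at chr3:140496462-140496711 on the plus strand, and the Scg5 promoter at chr3:121042796-121043045 on the minus strand.
Scg2: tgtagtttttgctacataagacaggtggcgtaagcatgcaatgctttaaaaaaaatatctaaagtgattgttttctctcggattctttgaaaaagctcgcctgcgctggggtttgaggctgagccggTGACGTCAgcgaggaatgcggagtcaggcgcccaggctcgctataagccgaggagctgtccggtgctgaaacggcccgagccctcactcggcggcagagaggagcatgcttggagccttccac
Chgb: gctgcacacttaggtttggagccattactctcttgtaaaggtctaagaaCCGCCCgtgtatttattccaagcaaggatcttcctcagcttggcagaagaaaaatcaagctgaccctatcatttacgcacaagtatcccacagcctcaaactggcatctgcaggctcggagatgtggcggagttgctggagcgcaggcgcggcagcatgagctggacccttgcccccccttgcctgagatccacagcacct
Scg5: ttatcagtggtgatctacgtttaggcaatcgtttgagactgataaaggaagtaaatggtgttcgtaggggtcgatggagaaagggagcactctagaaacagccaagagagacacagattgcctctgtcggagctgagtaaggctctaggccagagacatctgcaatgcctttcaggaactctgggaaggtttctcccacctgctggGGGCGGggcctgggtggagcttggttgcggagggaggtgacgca
The Scg2 promoter held the full cyclic AMP response element, a palindrome bound by factors of the CREB family, at -123 to -116. No other of the 6 promoters held it in this window. The Sp1 box was found in 4 of the 6. In Scg5 it lay at -44 to -39, in Cpe at -89 to -84, and in Chgb on the opposite strand at -201 to -196, where it reads CCGCCC. The Pcsk2 promoter, of 79.6% G and C where the median of all promoters was 51.2%, held 7 matches, some of which overlapped. Neither Sp1 box nor cyclic AMP response element was found in the Pam window, and none of the 6 held the TATA box. These are matches of letters, and nothing in the arrays measured binding.

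Chgb, on probe set AF019974_at, encodes chromogranin B, a main matrix protein of endocrine granules. Its signal was 1148, 1155 and 1334 on the CAS arrays, 728, 619 and 726 on the SPI arrays, and 491, 482 and 449 on the WPH arrays. The 3 diets did not overlap, with CAS highest and WPH lowest. The mean fell from 1212 ± 106 (SD, n = 3) with CAS to 474 ± 22.3 with WPH, a log2 change of -1.35 (SE 0.112, limma adjusted p = 3.22e-06). With SPI the mean was 691 ± 62.7, lower than CAS 1.75-fold, at -0.81 on the log2 scale (adjusted p = 0.000414). That SPI value kept its size with the wash round as a block, at -0.81, but its call was lost (adjusted p = 0.0906). Between the diets themselves, SPI was above WPH 1.46-fold (log2 change 0.54, adjusted p = 0.00593), a call also lost with that block (adjusted p = 0.0632). Within the first wash round, WPH 2 differed from the CAS mean by -1.33 on the log2 scale, which is also the value that the block gives. No call of Chgb was lost when any 1 array was left out.

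Chgb was the one granin measured here that is also on the list of endocrine cell markers used. Scg2, which is abundant in endocrine cells too, was not on that list. The other listed endocrine markers with a probe set were Gcg, Pyy, Cck, Neurod1 and Tph1. They summed to between 1136 and 1200 on the CAS arrays, 362 to 383 with SPI and 254 to 417 with WPH. The list did not hold the hormone genes Sst, Sct, Gip and Gast. Of these, Sst rose from a mean of 804 with CAS to 1159 with SPI and 2189.5 with WPH. Sct was lower with WPH, and Gip and Gast were not tested. Tph1, which makes serotonin in enterochromaffin cells, was under 100 on all arrays, and Neurod1 was not called. With Chgb counted, 4 of 5 tested markers of the endocrine list were lower with WPH and 4 of 5 with SPI. Of all tested probe sets, 17.9% and 10.2% were. The study had picked Chgb, Gcg and Pyy from these same arrays. The SPI count fell to 1, that of Pyy, with the wash round as a block, while the WPH count stayed at 4. In tissue of many cell types, fewer cells of a type and less RNA per cell cannot be told apart. The part of cell content in the Chgb result was not tested.

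Scg2, on probe set M93669_at, encodes secretogranin II, the precursor of secretoneurin, which is abundant in neurons and endocrine cells, and it was the gene whose promoter held the cyclic AMP response element. The CAS arrays gave signals of 538.5, 665 and 521. The SPI arrays gave 961, 781 and 996, and the WPH arrays gave 1759, 1481 and 1660.4. Again no diet overlapped another, but the order was the reverse of that of Chgb. The mean rose from 575 ± 78.8 (SD, n = 3) with CAS to 1633 ± 141 with WPH, a log2 change of 1.51 (SE 0.134, limma adjusted p = 4.95e-06). With SPI it was 913 ± 116, higher 1.59-fold, at 0.67 on the log2 scale (adjusted p = 0.0043). The SPI change shrank to 0.39 with the wash round as a block and was not called there (adjusted p = 0.462). SPI stayed below WPH 1.79-fold (log2 change -0.84, adjusted p = 0.00115), also with that block (-0.98, adjusted p = 0.00674). By its construction the block takes that value from the second wash round alone, the only one that SPI and WPH share.

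Scg5 encodes the small protein 7B2, which binds the convertase of Pcsk2 in the cell, keeps it inactive on its way to the granule and lets it mature. On probe set M63901_g_at the signal was 162, 159 and 141 with CAS, 317, 270.3 and 270 with SPI, and 640.2, 517 and 549.8 with WPH. No array of one diet came near those of another. The mean was 154 ± 11.5 (SD, n = 3) with CAS and 569 ± 63.7 with WPH, so that this was the widest log2 change of any tested probe set of the group, at 1.88 (SE 0.141, limma adjusted p = 1.51e-06). SPI lay between them, at a mean of 286 ± 27.2, higher than CAS 1.86-fold (log2 change 0.89, adjusted p = 0.00104) and lower than WPH 1.99-fold (log2 change -0.99, adjusted p = 0.000561). With the wash round as a block, SPI against CAS was 0.73 and not called (adjusted p = 0.182), whereas SPI against WPH was -1.02 and called (adjusted p = 0.0082).

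The second Scg5 probe set, M63901_at, did not show a change of that size. It gave 156, 237 and 202 with CAS, 266, 193 and 271 with SPI, and 299, 247 and 255 with WPH. The WPH arrays were all above the CAS arrays, but by little, and the SPI arrays overlapped both. WPH against CAS was 0.45 on the log2 scale with a 95% interval of 0.01 to 0.88 (limma adjusted p = 0.101). The interval for M63901_g_at, 1.57 to 2.19, lay wholly above it, so the probe sets of this gene disagreed in the size of the change. SPI against CAS was 0.30 (adjusted p = 0.336) and SPI against WPH was -0.15 (adjusted p = 0.655). Over the 9 arrays the log2 signals of both probe sets correlated at r = 0.677. Which one follows the transcript more closely cannot be read from these files.

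**Figure D2:**
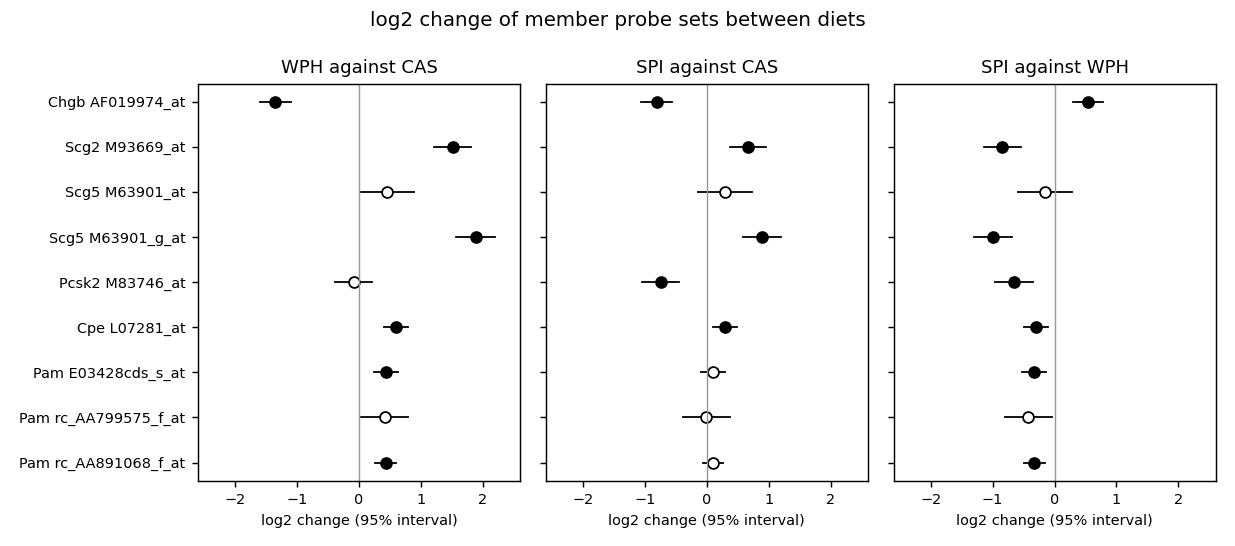
Log2 change of each tested probe set in the 3 comparisons, with its 95% interval from the limma fit over 9 arrays; filled points were called at an adjusted p under 0.05. Chgb is on the opposite side of 0 from Scg2 and Scg5 (M63901_g_at) in each comparison, and Pcsk2 leaves 0 where SPI is compared.

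Markers of other cell types in the wall also differed between the diets. All 12 tested markers of enteric neurons were called higher with WPH and 8 with SPI, with no marker called lower. Of all tested probe sets, 20.9% were called higher and 17.9% lower with WPH, and 12.0% and 10.2% with SPI. The summed signal of the 13 listed neuron markers with a probe set was 6957 to 7198 with CAS, 11409 to 11568 with SPI and 18440 to 18594 with WPH. Glia markers rose as well, 2 of 2 with WPH and 1 of 2 with SPI, and their sum went from 718 to 753 with CAS to between 1698 and 2465 with WPH. All 7 markers of smooth muscle were called higher with either diet, with sums of 94357 to 100102 with CAS, 138659 to 140699 with SPI and 185055 to 210721 with WPH. Markers of the epithelium went the other way, 9 of 9 lower with WPH and 6 of 9 with SPI, from a sum of 36443 to 37988 with CAS to 23887 to 24807 and 8928 to 9825. Apart from Tph1, no listed marker with a probe set was under 100 on all arrays. The study had picked all 9 epithelium markers, and the neuron markers Prph, Nefl, Nefm, Calb2, Sncg and Uchl1, from these same arrays. Their directions with WPH are therefore not independent evidence. The markers called with SPI fell, once the wash round was a block, to 1 of 12 for neurons, 0 of 2 for glia and 3 of 7 for smooth muscle, all higher, and to 4 of 9 lower for the epithelium, whereas with WPH they were 11 of 12, 2 of 2, 7 of 7 and 9 of 9. The part of these markers in the change of Scg2, Scg5 or any other gene of the group was not tested.

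**Figure D3:**
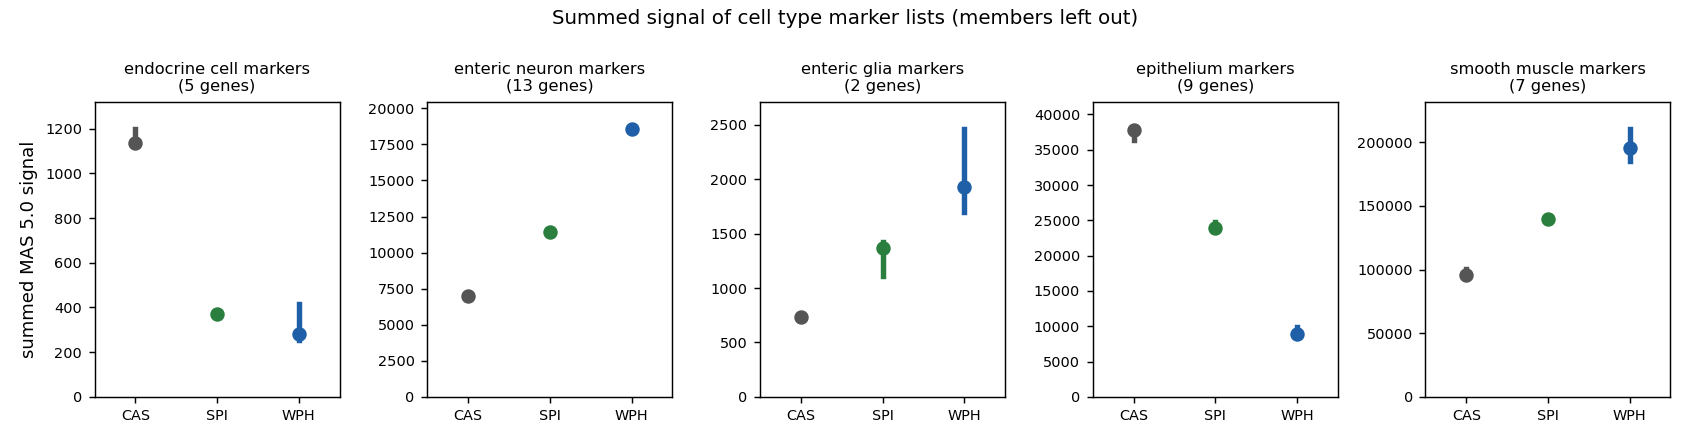
Summed MAS 5.0 signal of marker lists by diet, with the genes of the group left out; points are medians of 3 arrays and bars run from the lowest to the highest array. Sums of neuron, glia and smooth muscle markers rise from CAS to SPI to WPH, and that of epithelium markers falls, as does that of endocrine markers from CAS to either other diet.

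Pcsk2, on probe set M83746_at, encodes prohormone convertase PC2, which cuts prohormones at basic pairs and needs the Scg5 product to mature. Its signal was 383, 449 and 458 with CAS, 259, 225 and 287 with SPI, and 382, 394 and 436 with WPH. Here SPI stood alone at the bottom, and the CAS and WPH arrays overlapped. The mean was 430 ± 40.7 (SD, n = 3) with CAS and 257 ± 31.0 with SPI, lower 1.67-fold (log2 change -0.75, SE 0.138, limma adjusted p = 0.00257). SPI was also lower than WPH, whose mean was 404 ± 28.1, by 1.57-fold (log2 change -0.66, adjusted p = 0.0063). WPH against CAS was -0.09 with a 95% interval of -0.39 to 0.21 (adjusted p = 0.649). With the wash round as a block, SPI against CAS was -0.88 and no longer called (adjusted p = 0.106), while SPI against WPH was -0.76 and still called (adjusted p = 0.0266). The other Pcsk2 probe set, S40669_s_at, was dim, between 7.7 and 73.9 over the 9 arrays, and was not tested.

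Cpe, on probe set L07281_at, encodes carboxypeptidase E, which removes the basic residues that the convertases leave behind. Signals were 4093.5, 4920 and 4000.2 with CAS, 5377, 5255 and 5285.5 with SPI, and 6670.5, 6389 and 6491 with WPH. The diets did not overlap, and CAS 2 came closest to the SPI arrays. From a mean of 4338 ± 506 (SD, n = 3) with CAS, the signal rose to 6517 ± 142 with WPH, 1.5-fold (log2 change 0.59, SE 0.0878, limma adjusted p = 0.000252). This WPH call was kept with the wash round as a block (0.56, adjusted p = 0.0173). SPI had a mean of 5306 ± 63.4 and was higher than CAS 1.22-fold (log2 change 0.30, adjusted p = 0.032) and lower than WPH 1.23-fold (log2 change -0.30, adjusted p = 0.035). Both SPI calls were frail. Against CAS the call was lost without CAS 1 (adjusted p = 0.122), CAS 3 (0.122), SPI 1 (0.0935), SPI 2 (0.0545) or SPI 3 (0.0808), and with the wash round as a block (0.525). Against WPH it was lost without any 1 of the SPI or WPH arrays, at adjusted p values of 0.0694 to 0.0934, and with that block (0.156).

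Pam encodes peptidylglycine alpha-amidating monooxygenase, which turns a C-terminal glycine into the amide that many gut and nerve peptides need for activity. Of its 7 probe sets, 3 were bright enough to test. On rc_AA891068_f_at the signal was 2852, 3105 and 2952 with CAS, 3067, 3339 and 3159 with SPI, and 4035.5, 3987 and 3979.7 with WPH. The WPH arrays were above all others, and the SPI arrays overlapped those of CAS. WPH was higher than CAS 1.35-fold, with means of 4001 ± 30.3 and 2970 ± 128 (SD, n = 3), a log2 change of 0.43 (SE 0.0759, limma adjusted p = 0.000848). SPI against CAS was 0.10, with a 95% interval of -0.06 to 0.27 (adjusted p = 0.392), and SPI was lower than WPH 1.25-fold (log2 change -0.33, adjusted p = 0.0106, and 0.0896 with the wash round as a block).

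On E03428cds_s_at, the Pam signal was 959.9, 987 and 927 with CAS, 1022, 1061 and 1004 with SPI, and 1242, 1339 and 1310 with WPH. WPH again stood above the rest, and the SPI arrays lay just above those of CAS. WPH against CAS was 1.35-fold (log2 change 0.44, SE 0.0876, limma adjusted p = 0.00202), as on the probe set before. SPI against CAS was 0.10 (95% interval -0.09 to 0.30, adjusted p = 0.461). SPI was lower than WPH 1.26-fold (log2 change -0.33, adjusted p = 0.0205), a call lost without SPI 1 (0.0649), SPI 3 (0.0675), WPH 2 (0.0731) or WPH 3 (0.0568) and with the wash round as a block (0.163). The third Pam probe set, rc_AA799575_f_at, gave 562, 771 and 641 with CAS, 669.7, 528 and 773 with SPI, and 1023, 852 and 756 with WPH, and here the 3 diets overlapped. Its WPH value was close to the other ones in size, at 0.42, but missed the threshold (adjusted p = 0.079). It was called without CAS 2 (0.54, adjusted p = 0.0434). Its SPI value was -0.01 against CAS (adjusted p = 0.983) and -0.42 against WPH (adjusted p = 0.114). The suffixes s and f mark probe sets whose probes may match more than 1 transcript, which applies to all 3. The other 4 Pam probe sets were dim, with no signal over 97.5 on any array.

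The calls of WPH against CAS were all kept in 3 settings that bear on the arrays themselves. These were the wash round as a block, quantile normalization and the omission of any 1 array. By its construction the block takes WPH against CAS from the first wash round alone, where WPH 2 was the only WPH array. With a minimum of 2-fold added, 2 higher calls (Scg2 and Scg5 on M63901_g_at) and 1 lower call (Chgb) were left in that comparison, beside 5.55% and 8.47% of all tested probe sets. None was left in SPI against CAS, beside 2.41% higher and 3.37% lower, or in SPI against WPH, beside 4.48% and 1.02%. The arrays of WPH and CAS did not overlap in 6 probe sets that were higher with WPH and in 1 that was lower, where 28.0% and 22.4% of all tested probe sets did so. For SPI and CAS the counts were 4 higher and 2 lower, beside 19.5% and 19.1%. SPI against WPH had 1 call higher, where 10.1% of all tested were called, and 6 lower, where 9.83% were. The median log2 change of the 9 probe sets was 0.44 for WPH against CAS, 0.10 for SPI against CAS and -0.33 for SPI against WPH, beside 0.06, -0.01 and -0.08 over all tested probe sets. The comparisons share arrays, so these medians are not independent of each other.

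Across the 9 arrays, the log2 signals of Scg2 and of Scg5 on M63901_g_at had a correlation of 0.982, and Scg2 and Cpe of 0.976. Chgb ran against them, at -0.939 with Scg2, -0.966 with Scg5 and -0.946 with Cpe. Both called Pam probe sets correlated at 0.973 with each other and at 0.918 and 0.928 with Scg2. Pcsk2 followed none of them closely, and its correlations with the other 8 probe sets lay between -0.0857 and 0.398. The points are 3 clusters of 3 arrays of 1 pool each, so these values describe the order of the diets more than any spread within a diet.

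The genes with the most similar pattern were taken from 4614 tested probe sets of other single symbols, by Pearson's r over the same 9 arrays. For Chgb they were Dbi (0.996), Prlr (0.993) and Glul (0.992). For Scg2 they were Nefm (0.991), which encodes a neurofilament subunit, the receptor gene Ret (0.99) and Nol3 (0.989). For Scg5 they were Calm2 (0.991), Nexn (0.991) and Prph (0.989), of which Prph encodes peripherin, an intermediate filament of peripheral neurons. Pcsk2 had Cdo1 (0.974), Got2 (0.949) and RT1-Bb (0.915), Cpe had Boc (0.987), Oaz2 (0.984) and Calb1 (0.982), and Pam had Cdc42ep3 (0.978), the serotonin receptor gene Htr3a (0.977) and Rtn1 (0.976). Nefm, Ret and Prph are also on the list of neuron markers.

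Other genes of the secretory pathway, broadly expressed ones included, were followed from a list of 30. Of these, 22 had a probe set and 17 were tested at their brightest one. With WPH 7 were called higher and 3 lower, beside 20.9% and 17.9% of all tested probe sets, and the lower calls were near that share. The median log2 change was 0.50, beside 0.06 over all tested. Over the omission of 1 array at a time, the higher calls ranged from 5 to 8. Cadps2, Rab3a and Ctsl, named because their higher calls were frail, had limma adjusted p values of 0.0296, 0.0381 and 0.0258. Those calls were lost in 4, 5 and 4 of the 9 omissions. Scg3, which encodes the granin that tethers chromogranin A to the granule membrane, had a mean of 283 ± 22.4 (SD, n = 3) on the CAS arrays, 465 ± 69.5 on those of SPI and 784 ± 76.8 on those of WPH, and was higher with WPH 2.77-fold (log2 change 1.47, limma adjusted p = 9.63e-06). Cadps, which primes dense-core granules for release, was higher 2.59-fold (1.39, adjusted p = 0.00018). Ptprn, a membrane protein of these granules, was higher 2.40-fold (1.25, adjusted p = 1.1e-05), and Resp18, a protein of endocrine and nerve cells, was higher 2.23-fold (1.16, adjusted p = 8.4e-06). Scg3 and Resp18 had also been picked by the study from these arrays. The WPH arrays of these 4 genes were all above the CAS arrays, as those of Scg2 were.

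The ubiquitous convertase gene Furin moved down, from a mean of 1490 ± 162 (SD, n = 3) with CAS to 803 ± 76.4 with WPH, 1.85-fold (log2 change -0.89, limma adjusted p = 0.000253). The other 2 genes of the list that were lower with WPH, named after their values were seen, were Pcsk7, a further broadly expressed convertase (-0.87, adjusted p = 6.21e-05), and the carboxypeptidase gene Cpd (-0.62, adjusted p = 0.00141). With SPI 6 of the 17 were called higher and 2 lower, beside 12.0% and 10.2% of all tested probe sets. Scg3 was at 0.71 (adjusted p = 0.00426), Resp18 at 0.79 (0.000419), Ptprn at 0.55 (0.00816), Cadps at 0.63 (0.0389) and the convertase gene Pcsk6 at 0.95 (0.0231), while Furin was at -0.32 (0.116). The Cadps call was lost without CAS 3 (0.135), SPI 1 (0.0664), SPI 2 (0.0862), SPI 3 (0.114) or WPH 2 (0.0549), and the Pcsk6 call without CAS 2 (0.0803), CAS 3 (0.074), SPI 1 (0.0506) or SPI 2 (0.0837). With the wash round as a block none of the 17 was called for SPI against CAS. Pcsk6 with WPH was at 0.66 (adjusted p = 0.0658), and was called without CAS 1 (0.0253) or SPI 2 (0.0498). SPI against WPH had 2 higher and 4 lower of the 17, beside 10.1% and 9.83% of all tested.

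**Figure D4:**
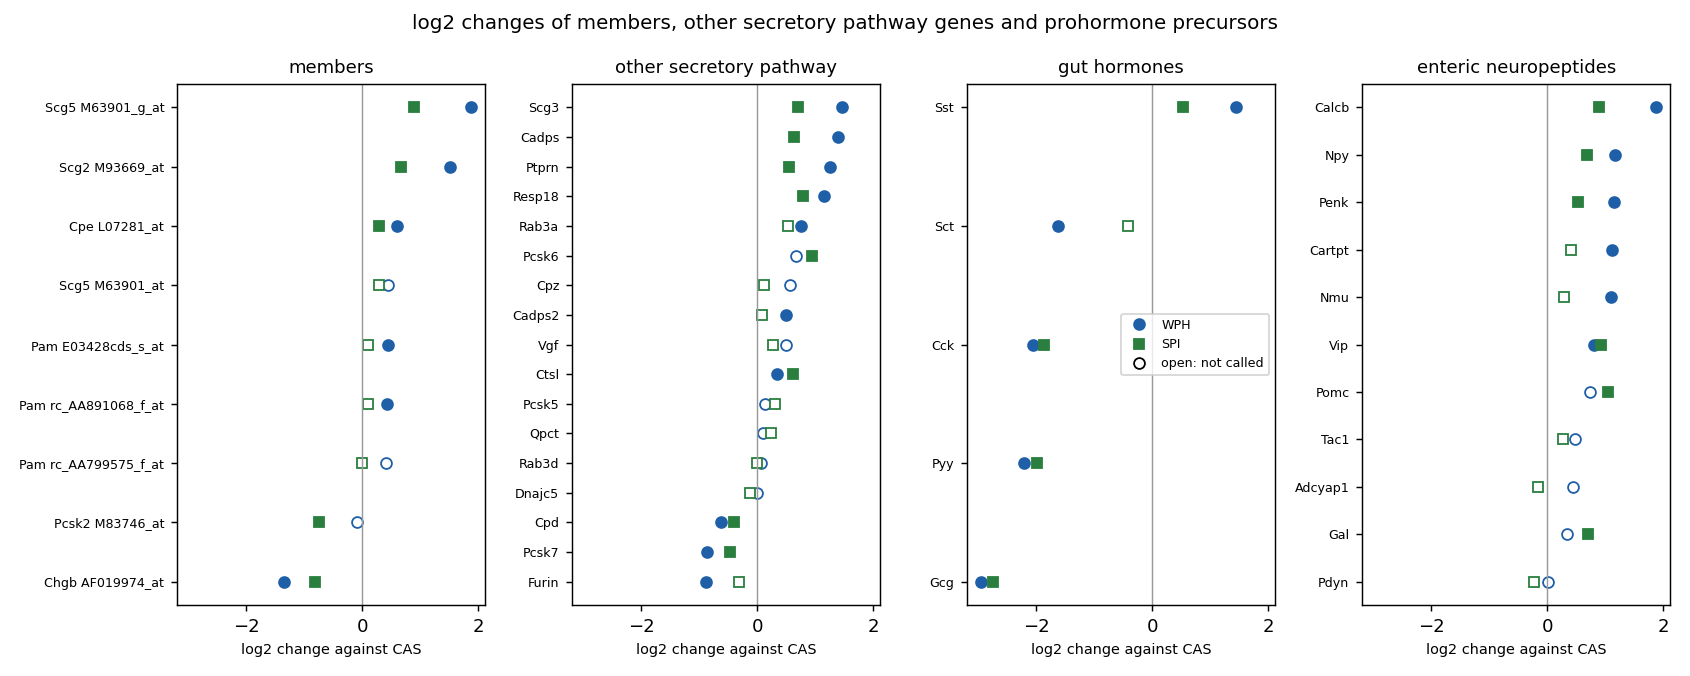
Log2 change against CAS (limma fit, 9 arrays) of the tested probe sets of the granin and processing group, of other secretory pathway genes, of gut hormone genes and of enteric neuropeptide genes, with circles for WPH, squares for SPI and open symbols for values not called. Chgb falls on the side of the hormones Gcg, Pyy and Cck, and Scg2, Scg5 and Cpe on the side of most neuropeptides and of Sst.

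The substrates of these enzymes were set beside them. Of 11 gut hormone genes, 5 were tested, and 4 were lower with WPH and 1 higher, at a median log2 change of -2.06. Of all tested probe sets, 17.9% were called lower and 20.9% higher with WPH. Pyy, the peptide of colonic L cells, fell from a mean of 694 ± 72.6 (SD, n = 3) with CAS to 178 ± 35.6 with SPI and 152 ± 38.8 with WPH, lower 3.91-fold and 4.56-fold (limma adjusted p = 4.95e-05 and 6.51e-06). Gcg, which encodes the glucagon-like peptides of the same cells, had a mean of 156 with CAS and was under 100 on all SPI and WPH arrays, so that it was lower by at least 1.56-fold with SPI (adjusted p = 0.00209) and with WPH (adjusted p = 0.0006). Cck was lower by at least 1.83-fold in the same way with SPI (adjusted p = 0.00171) and with WPH (adjusted p = 0.000405), and Sct was lower with WPH (adjusted p = 0.0119), with no fold given because the WPH 2 and WPH 3 signals were under 100. Sst, which encodes somatostatin of endocrine D cells and of enteric neurons, was higher 1.44-fold with SPI (adjusted p = 0.00226) and 2.72-fold with WPH (adjusted p = 6.51e-07). The study itself had picked hormones of this list from the same arrays, so the counts are not independent evidence of a direction. Against CAS, SPI had 3 lower and 1 higher of 5, beside 10.2% and 12.0% of all tested. With the wash round as a block 1 lower call was left, that of Pyy (adjusted p = 0.016). Chgb thus had the direction of Pyy, Gcg and Cck with both diets, and Scg2, Scg5 (M63901_g_at) and Cpe that of Sst. With SPI, only the Pyy call among these genes was kept with the block.

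Among 14 enteric neuropeptide genes 11 were tested. With WPH 6 were higher and none lower, beside 20.9% and 17.9% of all tested probe sets, with a median log2 change of 0.81. With SPI 6 were higher and none lower, beside 12.0% and 10.2%, with a median of 0.54. The largest was Calcb, which encodes a calcitonin gene-related peptide. Its mean was 169 ± 51.0 (SD, n = 3) on the CAS arrays, 303 ± 11.4 on those of SPI and 598 ± 64.4 on those of WPH. It was higher 3.55-fold with WPH (log2 change 1.87, limma adjusted p = 3.41e-05). With SPI it was higher than with CAS 1.80-fold (log2 change 0.90, adjusted p = 0.0107). Npy was at 1.17 with WPH (adjusted p = 0.000115) and 0.69 with SPI (0.00833), and Penk, the enkephalin precursor, at 1.14 (4.97e-05) and 0.54 (0.0152). The SPI call of Penk was lost without SPI 1 (0.0676). Cartpt was at 1.12 with WPH (0.000162) and 0.41 with SPI (0.0829), where it was called without SPI 3 (0.0438), and Nmu was at 1.11 with WPH (4.45e-05) and 0.28 with SPI (0.155). Pomc, with a mean of 63 with CAS and under 100 on all CAS arrays, was higher with SPI by at least 1.28-fold (adjusted p = 0.0452), a call lost without CAS 1 (0.153), CAS 2 (0.0531), CAS 3 (0.0605), SPI 1 (0.138), SPI 2 (0.118) or WPH 2 (0.0604). None of these was called for SPI against CAS with the wash round as a block. The study had picked Cartpt and Tac1 of this list from the same arrays, so its counts are not independent evidence of a direction.

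Of 2 control ratios that bear on RNA quality, 1 also differed with diet. The ratio of the 3' to the 5' probe set of the beta-actin control, which rises as RNA or its copy gets shorter, had a mean of 1.86 (range 1.83 to 1.88) with CAS, 2.21 (2.14 to 2.36) with SPI and 2.98 (2.53 to 3.50) with WPH. The same ratio for GAPDH was 1.56, 1.56 and 1.63, and there the diets overlapped. The order of the beta-actin ratios is that of the Scg2, Scg5 and Cpe signals and the reverse of that of Chgb. The part of RNA quality in any of these results was not tested.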

How the data were processed

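RNA from 3 pools, 1 per diet, was measured on 9 Affymetrix RG_U34A arrays. The authors computed the deposited signal intensities with MAS 5.0, on a linear scale and without detection calls, and gave all arrays a common average of 500. The trimmed mean was 500.7 or 500.8 on every array, and 3 arrays per diet limit the precision. Instrument settings files deposited with the arrays were read only for the clock time of the entry named Hybridize Date, taken as the fluidics run. The date itself was not used, and a gap of over 30 minutes separated wash rounds.

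Groups were taken from the sample titles. Signals under 0.1 were set to 0.1 and changed to log2. After 59 control probe sets were left out, 5606 of 8740 with a mean of at least 100 in at least 1 diet were fitted together in R 4.3.3 by limma 3.58.1 (eBayes with its trend option). Adjusted p-values are Benjamini-Hochberg values of limma's moderated test over all 5606. Where all arrays of a diet were under 100, those signals were set to 100 and the fold is a lower bound. The fit was tested on simulated data. Of all probe sets, 7018 had 1 symbol in the annotation, 308 had several and 1473 had none. No detection call was used, so a dim probe set is one with a low signal. Promoters were read with Python 3.11.15 and pandas 2.3.3, and figures were drawn with matplotlib 3.10.9.

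All probe sets of the group are named. Of the other lists, the genes called in at least 1 comparison are named, up to 6 per list by the largest log2 change. For each gene of the group, the 3 genes with the highest correlation are named. The members and the lists were chosen with earlier results of these data known. Replicate numbers were checked and did not pair the arrays. Alternatives tried were signals raised to at least 50, an offset of 32 before log2, a filter at a mean of 200 or no filter, centring on the median, quantile normalization, eBayes without the trend, a fit of 2 diets at a time, the methods' t-test, a 2-fold minimum, a block for the wash round or for the replicate number, all probe sets of a list, and the omission of each array. The difference within a wash round, and counts of marker genes with the wash round as a block, were added after the data had been seen.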

Additional observations from a re-analysis of the deposited data

How the results depend on the processing

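No called result changed direction in any alternative run. Of the values not called, Pam on rc_AA799575_f_at for SPI against CAS (-0.01) turned positive with quantile normalization (0.03), with median centring (0.02), without CAS 2 (0.11) and without SPI 2 (0.14), and Scg5 on M63901_at for SPI against WPH (-0.15) did so without SPI 2 (0.01), none of them called. With the wash round as a block, the called probe sets of the group fell to 0 higher and 0 lower for SPI against CAS and to 0 higher and 3 lower for SPI against WPH, while those of WPH against CAS stayed at 5 and 1. Over all tested probe sets, that block gave 731 higher and 743 lower for WPH against CAS in place of 1174 and 1001, 100 and 152 for SPI against CAS in place of 673 and 570, and 352 and 208 for SPI against WPH in place of 565 and 551. In the lists it left, for SPI against CAS, 0 higher and 0 lower secretory pathway genes, 0 higher and 1 lower hormone genes and 0 higher neuropeptide genes, for SPI against WPH, 0 higher and 2 lower secretory pathway genes and 1 lower neuropeptide gene, and for WPH against CAS, 4 higher secretory pathway genes. The block uses 1 WPH array to link CAS to the rest, and the cause of the loss was not tested.

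A 2-fold minimum left 2 higher and 1 lower for WPH against CAS, 0 and 0 for SPI against CAS and 0 and 0 for SPI against WPH. The methods' t-test at its own threshold called 5 higher and 1 lower, 4 and 2, and 1 and 6 in those comparisons, and after Benjamini-Hochberg adjustment 5 and 1, 1 and 2, and 0 and 6. Of all 5606, it called 1284 and 1053, 872 and 838, and 684 and 856 at its own threshold, and 850 and 779, 396 and 402, and 308 and 228 after adjustment. With all probe sets of a list in place of the brightest, hormone probe sets called higher were 2 with WPH and 2 with SPI, and 2 were lower for SPI against WPH. Over the omission of 1 array at a time, probe sets of the group called higher ranged from 2 to 3 for SPI against CAS and from 5 to 6 for WPH against CAS, and those called lower from 4 to 6 for SPI against WPH. Secretory pathway genes ranged from 1 to 2 lower for SPI against CAS, from 1 to 2 higher and 2 to 4 lower for SPI against WPH, and hormone genes from 0 to 1 higher for SPI against WPH, the 1 being Sct without WPH 1 (limma adjusted p = 0.00554).

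The replicate numbers did not pair the arrays. Deviations of same-numbered arrays from their diet means correlated at -0.275 to 0.237 over 9 pairs, beside -0.345 to 0.286 over 18 other pairs. With the replicate block, 2 higher and 2 lower were called for SPI against CAS, 1 and 5 for SPI against WPH, and 5 and 1 for WPH against CAS, and the lost calls were those of Cpe (limma adjusted p = 0.0661 and 0.0721). Cpe with SPI also missed the threshold with quantile normalization (0.066 against CAS and 0.0589 against WPH) and without a variance trend (0.0911 and 0.0952). Signals under 100 on all arrays limit what could be seen of Pcsk2 on S40669_s_at and of 4 Pam probe sets.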
